A study of Mus musculus with 6 samples.

Results

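The muscle ubiquitin ligase genes and FoxO transcription factor genes described here are 10 genes, namely *Trim63*, *Fbxo32*, *Trim54*, *Trim55*, *Trim32*, *Fbxo30*, *Klhl40*, *Foxo1*, *Foxo3* and *Foxo4*. *Klhl40* encodes a kelch protein and is only grouped with the ligases here. All 10 were chosen by gene name from the 46078 genes listed in the count table, and each name matched 1 row. RNA was sequenced from C2C12 cells, an immortalized mouse myoblast line that fuses into myotubes when serum is withdrawn. The KO libraries came from cells in which CRISPR-Cas9 targeted *Hnrnpa2b1*, the gene of an RNA-binding protein of the hnRNP family, and the WT libraries from wild type cells of the same line. Both genotypes had been differentiated for 2 days in low serum with insulin, transferrin and selenium, and each gave 3 libraries, called KO1 to KO3 for the knockout and WT1 to WT3 for the wild type. The methods describe puromycin selection and 3 independent clones of each genotype without tying a library to a clone, so the p-values measure the spread between these libraries. The comparison of KO with WT asks how the RNA of these ligases and of the factors that drive them differed once *Hnrnpa2b1* was targeted.

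The libraries held 33605258 to 40558740 counted reads, and every member had between 398 and 5921 reads in every library, so all 10 passed the filter on low counts. CPM, the usual unit of read counts scaled to the size of each library, were computed with edgeR's TMM factors, which correct for differences in library composition. *Hnrnpa2b1* RNA itself was at 159, 195 and 249 CPM in KO and 225, 229 and 252 CPM in WT, and did not pass the test (log2 fold change −0.23, adjusted p = 0.381, edgeR). Its protein was not analysed here, but the paper states that the knockout of the clones was checked at the protein level by immunofluorescence and Western blot. In TPM the RNA was at 29.5, 38.0 and 59.9 in KO and 56.6, 57.4 and 58.0 in WT, with KO3 above every WT library. The log2 difference of −0.49 did not pass (adjusted p = 0.171, limma), and without KO3 it was −0.76 (adjusted p = 0.0293). Skeletal myogenic markers were abundant in every library, with 7 genes summing to 5906 to 16010 CPM, whereas adipocyte, endothelial and blood markers summed to at most 3.41 CPM, of which *Cd68* made up nearly all. The epithelial gene *Krt14* was the exception among the markers of other tissues, at 3.61, 0.687 and 2.73 CPM in KO1 to KO3 and 0.0868 to 0.458 CPM in WT (log2 fold change 2.88, adjusted p = 0.0299, edgeR). KO1 stood apart from the other KO libraries, with the myogenic markers at a median of 0.34 above the WT mean on the log2 scale, against −0.73 in KO2 and −1.13 in KO3. For the members, results from counts are therefore given with and without KO1 where leaving it out changed a call. In bulk RNA, fewer cells of a type and less RNA per cell cannot be told apart.

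Ubiquitin ligases mark proteins for the proteasome by attaching ubiquitin. In muscle, *Trim63* (MuRF1) and *Fbxo32* (atrogin-1, also called MAFbx) are the classical ligases of atrophy, and their transcription is raised by FoxO factors when signalling from insulin and growth factors through Akt is low. *Trim55* (MuRF2) and *Trim54* (MuRF3) are close relatives of *Trim63* whose proteins sit on the sarcomere and on microtubules. *Trim32* encodes a ligase that is mutated in a limb-girdle muscular dystrophy, *Fbxo30* (MUSA1) a ligase held down by BMP signalling, and *Klhl40* a muscle kelch protein that stabilises thin filament proteins and is mutated in nemaline myopathy.

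The 250 bases before the annotated start are shown for 4 members, because *Trim63*, *Trim54* and *Klhl40* varied together across the libraries while *Trim32* did not follow them (values below), and all 4 hold the same muscle-type E-box. The RefSeq promoter table (GRCm38.p6) held 7 of the 10 members, and *Fbxo32*, *Trim55* and *Foxo4* had no entry. Capitals mark matches on either strand to the FoxO motif TGTTTAC, the E-box CAGCTG that myogenic bHLH factors can bind, the TEAD motif GGAATG, which reads CATTCC from the other strand, and the TATA box TATAAA. The windows lie on the plus strand at chr4:134314870-134315119 for *Trim63*, chr5:31116362-31116611 for *Trim54*, chr9:121777357-121777606 for *Klhl40* and chr4:65604736-65604985 for *Trim32*. The *Trim54* window ends upstream of the gene start given below (31116712), so its RefSeq start differs from that one. The windows of the others shown end at the base before theirs. Among the windows not shown, that of *Fbxo30* (chr10:11281337-11281586) lies inside the gene as placed below. That of *Foxo3* (chr10:42276696-42276945, minus strand) lies partly inside it.
Trim63: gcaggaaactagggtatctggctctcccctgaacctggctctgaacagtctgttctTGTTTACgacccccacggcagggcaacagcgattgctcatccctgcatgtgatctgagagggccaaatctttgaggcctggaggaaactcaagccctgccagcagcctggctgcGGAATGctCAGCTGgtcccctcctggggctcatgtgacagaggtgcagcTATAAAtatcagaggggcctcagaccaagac
Trim54: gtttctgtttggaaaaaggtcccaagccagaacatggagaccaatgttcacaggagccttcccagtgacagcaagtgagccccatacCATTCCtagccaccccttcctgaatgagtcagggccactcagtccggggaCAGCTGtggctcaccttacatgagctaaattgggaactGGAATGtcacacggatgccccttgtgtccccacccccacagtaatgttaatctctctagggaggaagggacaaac
Klhl40: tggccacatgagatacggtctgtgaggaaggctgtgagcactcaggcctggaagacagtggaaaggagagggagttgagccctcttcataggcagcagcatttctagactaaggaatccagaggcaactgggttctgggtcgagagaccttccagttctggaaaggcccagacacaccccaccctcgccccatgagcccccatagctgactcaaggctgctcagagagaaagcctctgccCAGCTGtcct
Trim32: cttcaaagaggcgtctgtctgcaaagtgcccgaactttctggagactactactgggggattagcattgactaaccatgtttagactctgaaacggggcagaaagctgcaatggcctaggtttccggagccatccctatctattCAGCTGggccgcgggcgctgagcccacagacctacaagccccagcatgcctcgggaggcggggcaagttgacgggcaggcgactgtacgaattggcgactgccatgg
Among the 7 promoters, the FoxO motif matched in *Trim63* alone, from 194 to 188 bases before the start, and it matched in 3.17% of all 32851 promoters of this length. The E-box matched in 4 of the 7 and in 13.0% of all promoters. In *Trim63* the E-box lay from 72 to 67 bases before the start, next to a TEAD motif at 80 to 75, and in *Klhl40* it lay at 10 to 5. The TEAD motif matched in *Trim63*, in *Trim54* at 2 places and in *Foxo3*, and in 12.6% of all promoters. The TATA box matched in *Trim63* only, against 12.4% of all promoters, and the MEF2 motif, found in 2.92% of all promoters, matched in none of the 7. These are matches of letters in a short window and not measured binding.

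Of the 3 MuRF genes, *Trim55* fell in KO, while *Trim63* and *Trim54* did not pass in the main edgeR fit of all libraries. *Trim55* (ENSMUSG00000060913, chromosome 3, 19644474 to 19692421) was at 66.2, 35.2 and 27.1 CPM in KO1 to KO3 and at 171, 121 and 143 CPM in WT1 to WT3. Every KO library lay below every WT library, and the highest KO library was at 45.7% of the WT mean. It was 3.38-fold lower in KO, a log2 fold change of −1.76 with a standard error of 0.32 (adjusted p = 0.00996, edgeR's quasi-likelihood test). This call held in all 12 alternatives, with log2 fold changes of −2.22 to −1.51 and adjusted p of 5.09e-14 to 0.0484.

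*Trim63* (ENSMUSG00000028834, chromosome 4, 134315120 to 134329629) was at 46.7, 18.8 and 12.9 CPM in KO1 to KO3 and at 105, 44.6 and 65.2 CPM in WT1 to WT3. KO2 and KO3 were at 26.3% and 18.1% of the WT mean, but KO1 was slightly above WT2, so the genotypes overlapped. Its log2 fold change of −1.45 (standard error 0.49, 95% interval −2.59 to −0.31) did not pass the threshold of an adjusted p under 0.05 (adjusted p = 0.0684, edgeR). Without KO1 it was −2.18 with an adjusted p of 0.00372. DESeq2 also called it (adjusted p = 0.00452), and the adjusted p over the 12 alternatives ranged from 6.76e-09 to 0.227.

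*Trim54* (ENSMUSG00000062077, chromosome 5, 31116712 to 31137630) was at 62.9, 37.2 and 34.1 CPM in KO1 to KO3 and at 69.2, 47.1 and 68.5 CPM in WT1 to WT3. KO1 lay inside the WT range and the other KO libraries lay below it. The difference of −0.46 on the log2 scale (standard error 0.26, 95% interval −1.06 to 0.14, adjusted p = 0.226, edgeR) did not pass, whereas without KO1 it was −0.79 and passed (adjusted p = 0.0175). It did not pass in 11 of the 12 alternatives, with an adjusted p of up to 0.491. An antisense gene, *Gm15469*, shares 26.6% of the exonic bases of *Trim54*, and the sources used here do not say whether strand was used in counting.

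**Figure D1:**
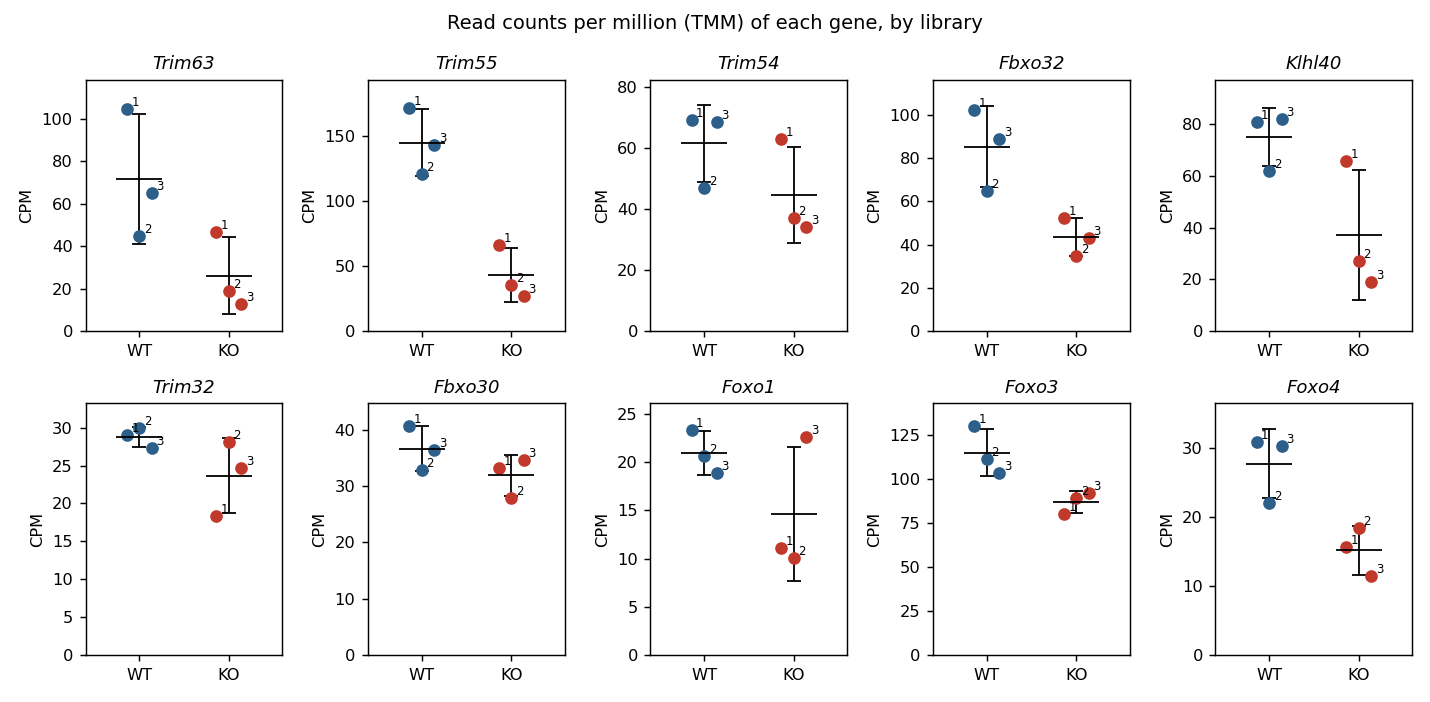
Each panel plots the TMM-scaled CPM of a gene in the 3 WT libraries (blue) and the 3 KO libraries (red), numbered by library, with the mean as a bar and the SD as whiskers. Genotypes do not overlap for *Trim55*, *Fbxo32*, *Foxo3* and *Foxo4*, and KO1 is the highest KO library for *Trim63*, *Trim55*, *Trim54*, *Fbxo32* and *Klhl40*.

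*Fbxo32*, the other classical atrophy ligase, fell in KO. *Fbxo32* (ENSMUSG00000022358, chromosome 15, 58175879 to 58214892) was at 52.2, 34.6 and 42.9 CPM in KO1 to KO3 and at 102, 64.9 and 88.8 CPM in WT1 to WT3. No KO library reached the lowest WT library, and the KO libraries were at 40.7% to 61.3% of the WT mean. That is 1.97-fold lower, with a log2 fold change of −0.98 and a standard error of 0.21 (adjusted p = 0.0169, edgeR). The call was lost without KO3 (adjusted p = 0.0517), WT1 (0.0759) or WT3 (0.0606), and the fold change then stayed between −0.98 and −0.84.

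*Klhl40* (ENSMUSG00000074001, chromosome 9, 121777607 to 121783819) was at 65.6, 27.0 and 18.99 CPM in KO1 to KO3 and at 80.8, 62.0 and 82.2 CPM in WT1 to WT3. KO1 was at 87.5% of the WT mean, while KO2 was at 35.9% and KO3 at 25.3%. Its log2 fold change of −1.01, with a standard error of 0.41, did not pass (adjusted p = 0.112, edgeR), and without KO1 it was −1.71 with an adjusted p of 0.00101. DESeq2 called it with KO1 included (adjusted p = 0.0319). It did not pass in 9 of the 12 alternatives, and the adjusted p over all 12 ranged from 1.99e-05 to 0.253. A gene model on the opposite strand, *Gm47108*, covers 21.6% of its exonic bases.

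*Trim32* (ENSMUSG00000051675, chromosome 4, 65604986 to 65616238), which lies inside an intron of *Astn2* on the other strand, was at 18.4, 28.1 and 24.6 CPM in KO1 to KO3 and at 29.1, 30.0 and 27.4 CPM in WT1 to WT3. Here KO1 was the lowest library, opposite to its place in the MuRF genes. *Trim32* had a log2 fold change of −0.28 (95% interval −0.69 to 0.12, adjusted p = 0.267, edgeR). *Fbxo30* (ENSMUSG00000047648, chromosome 10, 11281330 to 11298052) was at 33.2, 27.8 and 34.6 CPM in KO1 to KO3 and at 40.7, 32.8 and 36.3 CPM in WT1 to WT3. The genotypes overlapped for both genes, and the interval of *Fbxo30* ran from −0.53 to 0.14 around −0.20 (adjusted p = 0.344, edgeR). Neither gene passed in any of the 12 alternatives.

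Of the FoxO factors, *Foxo4* fell, *Foxo3* had a lower CPM in every KO library without passing the threshold, and *Foxo1* differed more between the KO libraries than between the genotypes. *Foxo4* (ENSMUSG00000042903, chromosome X, 101254528 to 101260873) was at 15.7, 18.5 and 11.4 CPM in KO1 to KO3 and at 30.9, 22.03 and 30.3 CPM in WT1 to WT3. The genotypes did not overlap, and the fitted log2 difference was −0.87 (standard error 0.22, adjusted p = 0.0276, edgeR), or 1.82-fold lower. This call was lost without KO3 (adjusted p = 0.0651), WT1 (0.113) or WT3 (0.0903), where the log2 difference was −0.83 to −0.70.

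*Foxo3* (ENSMUSG00000048756, chromosome 10, 42181841 to 42276755) was at 80.2, 89.4 and 92.2 CPM in KO1 to KO3 and at 130, 112 and 104 CPM in WT1 to WT3. The KO libraries were close to each other and all below the WT libraries (exact two-sided permutation test, p = 0.1, the smallest p that 3 against 3 libraries allow). On the log2 scale the difference was −0.40 (standard error 0.13, adjusted p = 0.0636, edgeR), and it did not pass in any alternative, with an adjusted p of 0.0594 to 0.227.

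*Foxo1* (ENSMUSG00000044167, chromosome 3, 52268336 to 52353221) was at 11.1, 10.1 and 22.6 CPM in KO1 to KO3 and at 23.4, 20.6 and 18.9 CPM in WT1 to WT3. KO1 and KO2 were at 53.1% and 48.2% of the WT mean, while KO3 was at 108% and lay inside the WT range. For *Foxo1* the log2 fold change of −0.52 (standard error 0.30, 95% interval −1.22 to 0.18) did not pass (adjusted p = 0.240, edgeR), and without KO3 it was −0.98 with an adjusted p of 0.0174. It did not pass in 11 of the 12 alternatives, with an adjusted p of up to 0.492. An antisense gene, *Gm20402*, shares 7.78% of the exonic bases of *Foxo1*.

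Of the 10 members, 3 were called lower in KO (*Trim55*, *Fbxo32* and *Foxo4*) and 0 were called higher, at an adjusted p under 0.05 in edgeR. Of all 14828 genes tested, 22.7% were called, 10.6% lower and 12.1% higher, so the share of members called in either direction was near the background. In the lower direction alone, the 3 of 10 stood beside 10.6%, with no test of that difference. At an unadjusted p under 0.05, 6 of the 10 members differed, all of them lower in KO, beside 39.0% of all genes tested in either direction. The fitted fold change was below 0 for all 10 members, with a median of −0.69, against a median of 0.03 over all genes tested, of which 47.7% were below 0. With the library totals in place of TMM the median of all genes was 0.15, and the 10 members were still below 0. The libraries of the genotypes were fully separate for 4 members, near the 44.3% of all tested genes for which this held.

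The number of members called rested on single libraries. It was 6 without KO1, where *Trim63*, *Trim54* and *Klhl40* joined and 30.6% of all genes tested were called. It was 2 without KO3 (*Trim55* and *Foxo1*), beside 13.9% of all genes. Without WT1 and without WT3 it was 1 each, *Trim55*, beside 6.01% and 8.43% of all genes. DESeq2 called 5 members, namely *Trim55*, *Fbxo32*, *Foxo4*, *Trim63* and *Klhl40*, and 4149 of the 17329 genes to which it gave an adjusted p (23.9%).

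TPM values, which StringTie computes per transcript length, were compared with limma on log2(TPM + 1). They were not scaled for differences in library composition, and the gene with the highest TPM held 13.8% (WT3) to 19.8% (KO2) of a library's TPM. The comparison gave 5 calls among the 10 members, all lower in KO, where 20.5% of the 11691 genes tested were called. *Trim55* was at 15.6, 9.05 and 7.94 TPM in KO1 to KO3 and at 45.1, 32.5 and 34.4 TPM in WT1 to WT3, a log2 difference of −1.73 (standard error 0.24, adjusted p = 0.00285). *Trim63* was at 15.7, 6.54 and 5.45 TPM in KO and at 38.9, 17.0 and 22.5 TPM in WT, and on this scale the genotypes did not overlap and the difference of −1.46 passed (adjusted p = 0.0311). *Klhl40* (−1.12, adjusted p = 0.0358), *Fbxo32* (−0.83, 0.0188) and *Foxo4* (−0.70, 0.0233) passed as well. Of the 9 alternatives on TPM, the call of *Klhl40* was lost in 6, that of *Trim63* in 5 and those of *Fbxo32* and *Foxo4* in 4 each. Only the call of *Trim55* held when all genes with a TPM were tested, with 1 of the 10 members and 3.94% of all genes then called. *Foxo3* was at 7.26, 8.61 and 10.7 TPM in KO and 13.2, 11.7 and 9.72 TPM in WT, so on this scale its genotypes overlapped.

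**Figure D2:**
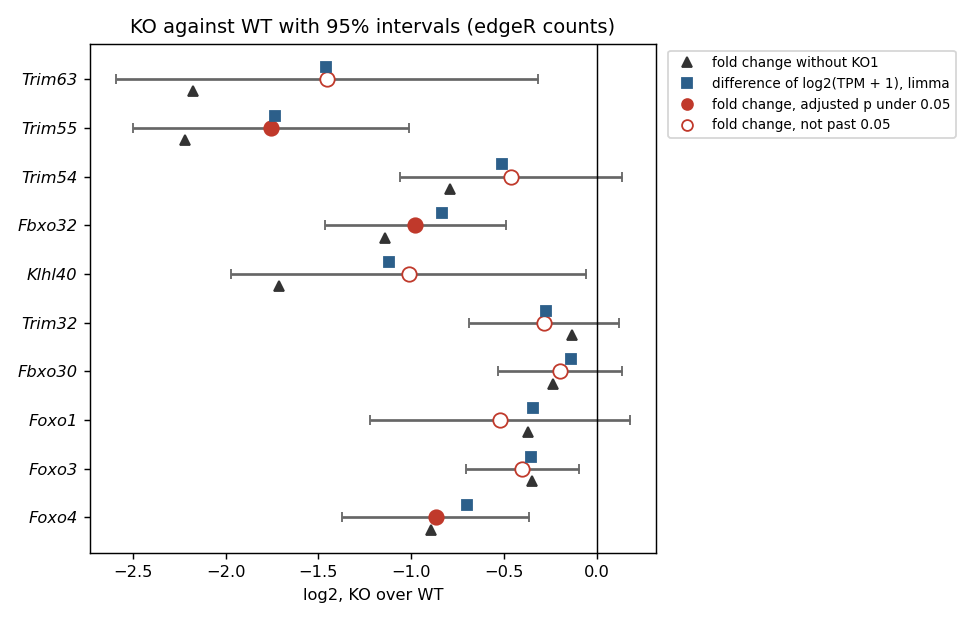
Circles give the edgeR log2 fold change of KO over WT from counts with its 95% interval, filled where the adjusted p is under 0.05. Triangles give the same without KO1 and squares the limma difference of log2(TPM + 1). All values lie below 0, and *Trim63*, *Trim54* and *Klhl40* lie further from 0 without KO1.

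Levels can be compared between genes on the TPM scale. In WT, *Trim54* (39.4 ± 6.96 TPM, SD, n = 3) and *Trim55* (37.3 ± 6.82) were highest, followed by *Trim63* (26.1 ± 11.4) and *Klhl40* (20.6 ± 2.41), and these 4 overlapped from each to the next. *Klhl40* did not overlap with *Foxo3*, the next in order. After *Foxo3* (11.5 ± 1.73) came *Fbxo32* (8.60 ± 1.78), *Trim32* (6.14 ± 0.623), *Foxo4* (5.83 ± 0.956) and *Fbxo30* (4.90 ± 0.576), and *Foxo1* (1.72 ± 0.244) was lowest and did not overlap with *Fbxo30*. In KO, *Trim54* remained highest at 27.5 ± 6.55 TPM and no longer overlapped with *Trim55*, which was at 10.9 ± 4.12. *Klhl40*, *Trim63* and *Foxo3* came next at 9.78 ± 5.72, 9.25 ± 5.66 and 8.84 ± 1.71, and *Foxo1* was again lowest at 1.21 ± 0.728.

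The make-up of the MuRF family differed between the genotypes, with a larger share of *Trim54* and a smaller share of *Trim55* in KO, although neither gene had a higher mean TPM in KO. Summed over the 3 genes, TPM came to 66.4, 39.2 and 37.3 in KO and to 129, 81.2 and 98.0 in WT. *Trim54* held 52.8%, 60.2% and 64.1% of this sum in KO and 35.0%, 39.0% and 42.0% in WT. *Trim55* held 23.4%, 23.1% and 21.3% in KO and 34.9%, 40.1% and 35.1% in WT. The genotypes did not overlap for either share, KO1 included (p = 0.1 for both shares by the exact permutation test, the smallest possible with 3 against 3). The share of *Trim63*, 18.3 ± 4.78% in KO and 24.7 ± 4.82% in WT (SD, n = 3), overlapped.

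Among the 4 FoxO genes, with *Foxo6* added to the 3 members, *Foxo3* held the largest share of the summed TPM in every library, between 43.5% and 53.1%. *Foxo4* held 18.3%, 21.6% and 13.1% in KO and 26.6%, 21.01% and 30.0% in WT, and KO2 lay inside the WT range. *Foxo6* held 33.2%, 25.1% and 26.9% in KO and 12.5%, 19.4% and 15.6% in WT, with no overlap (p = 0.1 by the exact permutation test). In the counts *Foxo6* did not pass, at a log2 fold change of 0.56 (adjusted p = 0.0593, edgeR). The summed TPM of the FoxO genes overlapped between KO (16.7 to 21.2) and WT (20.5 to 24.8).

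**Figure D3:**
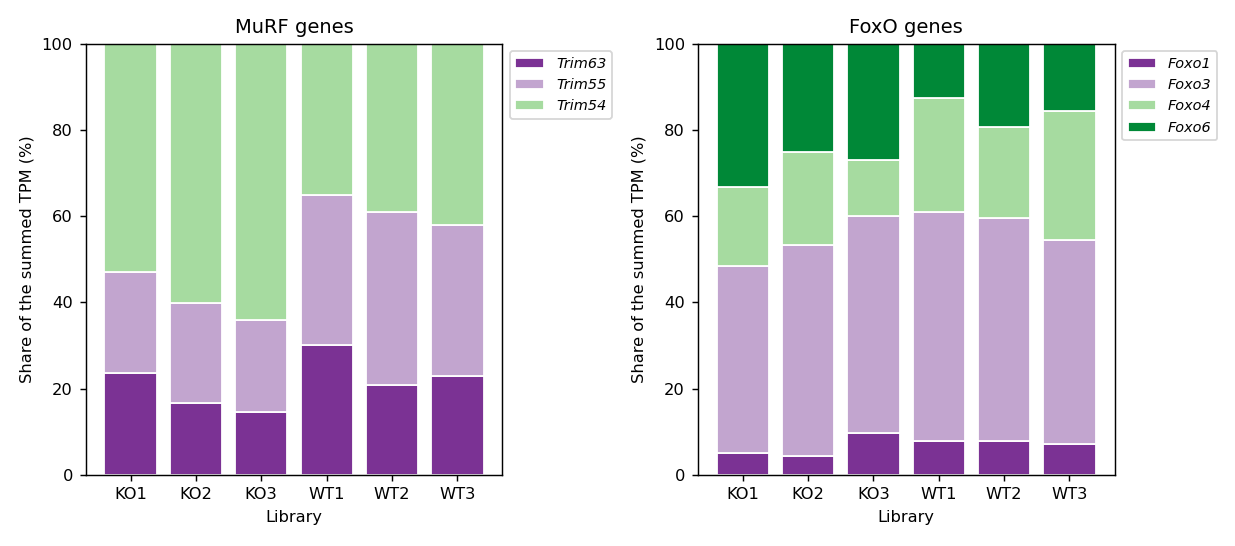
Stacked bars give the share of each gene in the summed TPM of the MuRF genes (left) and of the FoxO genes (right) in each library. *Trim54* takes over 50% of the MuRF sum in all 3 KO libraries and under 45% in all 3 WT libraries.

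The muscle ligase genes and *Klhl40* were also set beside the myogenic markers, since KO1 differed from KO2 and KO3 in both sets. In KO1, 4 of the 7 markers lay above all 3 WT libraries, namely *Myod1*, *Myog*, *Tnnt3* (2381 CPM) and *Acta1* (7023 CPM), and *Ckm* (574 CPM) lay inside the WT range. *Myh3* (4146 CPM against 4474 to 5811 in WT) and the early myogenic factor *Myf5* (4.92 CPM against 16.1 to 24.7) lay below all WT libraries in KO1, and *Myf5* was called lower over the 3 KO libraries (log2 fold change −1.50, adjusted p = 0.0303, edgeR). In the same library *Trim55* was at 45.7% and *Fbxo32* at 61.3% of the WT mean. *Trim54* and *Klhl40* in KO1 were at 102% and 87.5%, within the WT range. In KO2 and KO3, 5 of the 7 markers lay below all WT libraries, namely *Myf5*, *Myh3* (1007 and 1423 CPM), *Ckm*, *Tnnt3* and *Acta1*, as did *Trim63*, *Trim55*, *Trim54*, *Fbxo32* and *Klhl40*. *Myod1* went the other way, at 270 and 194 CPM against 96.0 to 126 CPM in WT, and *Myog* was above the WT range in KO2 (1532 CPM) and below it in KO3 (1005 CPM). The median of the 5 genes *Trim63*, *Trim55*, *Trim54*, *Fbxo32* and *Klhl40*, expressed as a log2 difference from the mean of the WT libraries, was −0.53 for KO1, −1.46 for KO2 and −1.97 for KO3, against −0.36 to 0.26 for the WT libraries. These 5 were chosen after their values were seen and leave out *Trim32* and *Fbxo30*. Over all 10 members the median was −0.59 for KO1, −0.87 for KO2 and −0.90 for KO3, so KO1 differed less from the other KO libraries. The 4 markers of dividing cells summed to 342 CPM in KO2 and 321 CPM in KO3, against 177 CPM in KO1 and 179 to 236 CPM in WT, but none of them passed the test. *Mki67* and *Top2a* were above the WT range in KO2 and KO3, whereas *Ccnb1* and *Cdk1* were inside it in KO3. The part of these marker levels in the results of the ligase genes and *Klhl40* was not tested.

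**Figure D4:**
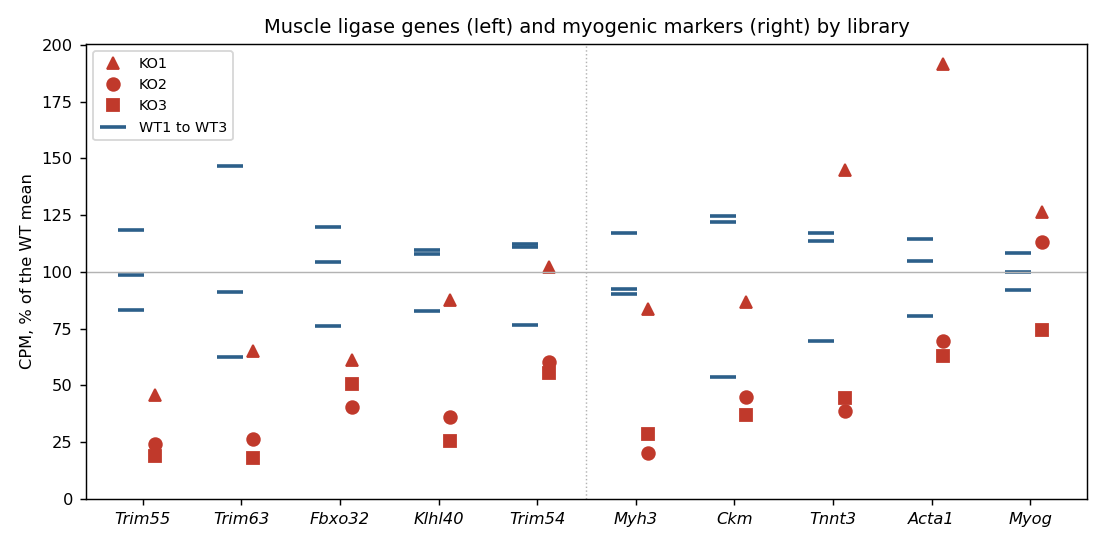
CPM of 5 members, ligase genes and the kelch gene *Klhl40* (left of the dotted line), and 5 myogenic markers (right), as a percentage of each gene's WT mean. Blue dashes are the WT libraries and red symbols the KO libraries. KO1 (triangles) lies within or above the WT range for all 5 markers plotted except *Myh3*, and below it for *Trim55* and *Fbxo32*; of the 2 markers not plotted, KO1 lies below the WT range for *Myf5* and above it for *Myod1*.

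Across the 6 libraries, log2 CPM of *Trim63* followed *Klhl40* (Pearson's r = 0.96), *Trim55* (0.96), *Trim54* (0.94) and *Fbxo32* (0.91) most closely, and *Foxo4* (0.85), *Foxo3* (0.63) and *Foxo1* (0.27) less. *Trim32* had r values of −0.13 to 0.34 with *Trim63*, *Fbxo32*, *Trim55*, *Trim54* and *Klhl40*. These are descriptions over 6 libraries that share the difference between genotypes, and they carry no test.

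Other genes of the pathway were taken from 7 lists, whose shares called stand beside 22.7% of all genes tested. The shares of the other ligases, of the autophagy, kelch and cullin and proteasome genes and of the substrates lay between 12.5% and 30.0%, near or below that background. The list of regulators upstream of FoxO, which also holds the FoxO factor *Foxo6*, held the largest fall and the largest rise among the genes of these lists. Of its 16 genes, *Foxo6* included, 6 fell and 1 rose, or 43.8% called against 22.7% of all genes, with a median of −0.15. *Ppargc1a*, which encodes PGC-1α, a coactivator of mitochondrial genes that restrains FoxO3 in muscle, was at 2.27, 1.40 and 1.03 CPM in KO1 to KO3 and at 37.6, 21.4 and 37.9 CPM in WT1 to WT3 (log2 fold change −4.37, standard error 0.36, adjusted p = 0.000728, edgeR). *Insr*, the insulin receptor, was at 55.5, 34.8 and 48.6 CPM in KO and 113, 104 and 115 CPM in WT (−1.26, adjusted p = 0.00453). *Prkaa2*, a catalytic subunit of the energy sensor AMPK, fell by 1.56 (adjusted p = 0.00669). *Sgk1*, a kinase related to Akt that can phosphorylate FoxO factors, rose in every KO library, at 119, 83.7 and 129 CPM against 35.0, 31.1 and 37.8 in WT (1.67, adjusted p = 0.00203). These 4 calls held in all 12 alternatives. *Igf1r* (−0.71), a receptor of insulin-like growth factor, and *Phlpp1* (−0.58), a phosphatase of Akt, named after their values were seen, also fell. The call of *Igf1r* was lost in 4 of the 12 alternatives and that of *Phlpp1* in 1.

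Of 14 other FoxO target genes, 4 fell and 2 rose (42.9% called against 22.7% of all genes, median −0.48). *Eif4ebp1*, an inhibitor of cap-dependent translation, fell by 0.91 (adjusted p = 0.00692), and *Cdkn1b*, the cyclin-dependent kinase inhibitor p27, by 1.13 (adjusted p = 0.00812, edgeR). *Irs2*, an adaptor of the insulin receptor, was at 2.17 to 2.55 CPM in KO and 4.99 to 7.86 CPM in WT (−1.41, adjusted p = 0.00891). *Pdk4*, which holds back the use of glucose in mitochondria, fell by 1.51 (adjusted p = 0.0188), a call that was lost without KO3, WT1 or WT3. *Cat* (0.50) and *Sesn3* (0.96), named after their values were seen, rose, so the list had no single direction. The call of *Cat* was lost in 4 of the 12 alternatives and that of *Sesn3* in 5.

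Of 14 autophagy genes linked to FoxO, 2 were called (14.3% against 22.7% of all genes), with a median of −0.18. *Gabarapl1* (−0.59, adjusted p = 0.0419), an autophagosome protein, and *Pink1* (−0.61, adjusted p = 0.0459, edgeR), a kinase that marks damaged mitochondria, fell, and each call was lost in 7 of the 12 alternatives. Of the 16 proteasome and ubiquitin genes, *Psma3* rose (0.61, adjusted p = 0.0149) and *Psmb6* fell (−0.65, adjusted p = 0.0395), and the other 14 did not pass (12.5% called against 22.7% of all genes, median −0.19). The call of *Psma3* was lost without WT1, WT2 or WT3, and that of *Psmb6* in 7 of the 12 alternatives.

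Of 16 other muscle ubiquitin ligases, 2 fell and 1 rose (18.8% called against 22.7% of all genes, median −0.21). *Mdm2*, the ligase of p53, was at 80.0 to 87.4 CPM in KO and 131 to 164 CPM in WT (−0.78, adjusted p = 0.00726, edgeR), and its call held in all 12 alternatives. *Asb2*, a muscle ligase adaptor, was at 65.0, 47.8 and 41.1 CPM in KO and 148, 79.3 and 151 CPM in WT (−1.30, adjusted p = 0.0162), a call lost without KO3, WT1 or WT3. *Traf6* rose by 0.51 (adjusted p = 0.0398), which 7 of the 12 alternatives did not hold. Of 6 kelch and cullin genes tested, *Cul3*, the scaffold that kelch adaptors bind, fell (−0.79, adjusted p = 0.0110; 16.7% called against 22.7% of all genes, median −0.28). Its call was lost without WT1 alone (adjusted p = 0.0623). *Klhl41*, named after its values were seen, did not pass in the main fit (−1.26, adjusted p = 0.0510, edgeR), though its genotypes did not overlap. It passed with DESeq2 and without KO1, and did not pass without KO2, KO3, WT1, WT2 or WT3.

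Among 10 substrates and partners of the ligases, 2 fell and 1 rose (30.0% called against 22.7% of all genes, median −0.37). *Mybpc1*, a myosin-binding protein of the thick filament that MuRF1 can target, was at 49.8, 25.99 and 43.4 CPM in KO and 296, 177 and 276 CPM in WT (−2.65, adjusted p = 0.00205, edgeR). *Myod1* and *Eif3f*, whose proteins are substrates of atrogin-1, moved apart at the RNA level. *Myod1* rose by 0.99 (adjusted p = 0.0141), lost without WT1 or WT3, and *Eif3f* fell by 0.68 (adjusted p = 0.0220), lost without WT1, WT2 or WT3. The thin filament genes *Neb* (−0.40) and *Lmod3* (−0.77), whose products *Klhl40* stabilises, did not pass in the main edgeR fit. Both were named after their values were seen. Of the alternatives, *Lmod3* passed without KO1 and without a filter, and *Neb* passed in none. *Lmod3* was at 201, 81.3 and 73.5 CPM in KO1 to KO3 and at 221, 128 and 257 CPM in WT1 to WT3.

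**Figure D5:**
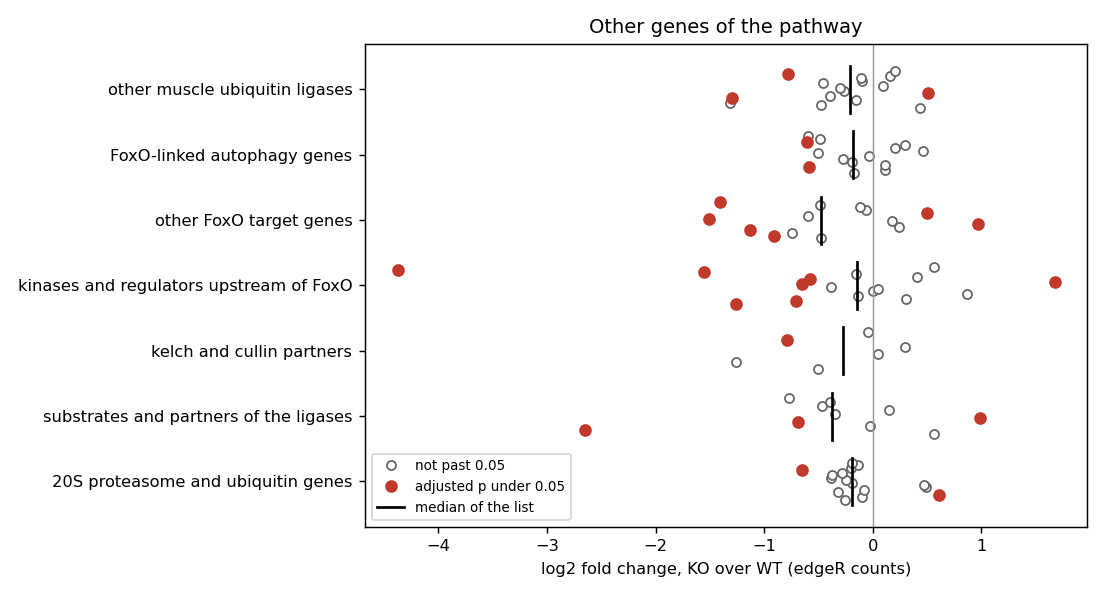
Each point is a gene of the list named on the vertical axis, placed by its edgeR log2 fold change of KO over WT (the vertical spread within a list is for legibility). Filled points have an adjusted p under 0.05, and the bar is the median of the list, which lies between −0.48 and −0.15. *Ppargc1a* is the point furthest left and *Sgk1* the point furthest right.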

How the data were processed

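From STAR alignments the authors deposited raw gene counts, not normalized, and StringTie TPM values per library, after removing ribosomal reads with SortMeRNA. FastQC, Trim Galore, featureCounts and Salmon are named in the submitters' processing notes. The genome build is given as mm9 in the labels and GRCm39 in the methods, but the deposited coordinates of 8 of the 10 members equal those of GENCODE M21 on GRCm38, which was used here. The counter's version and strand setting are not given in the sources used here. All 6 count columns were used. TPM rows sharing a gene identifier were summed.

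The members and lists were chosen with earlier results of these data known. All members were named. In each list up to 4 genes with the lowest adjusted p past the threshold were named. Counts of 46078 genes were filtered with filterByExpr, scaled by TMM and tested with edgeR 4.0.16 (quasi-likelihood, two-sided, in R 4.3.3), with p-values adjusted by Benjamini-Hochberg over the 14828 genes tested and a threshold of 0.05. TPM values of at least 1 in at least 3 libraries were tested with limma 3.58.1 on log2(TPM + 1). DESeq2 1.42.0, other scalings, no filter, a pseudocount of 0.1, a replicate block and leaving out each library were alternatives. Steps were tested on simulated data. No library repeated another: chi-square per degree of freedom within a genotype was 46.6 to 171. *Skp1* and *Mymk* had no row of that name, and *Kbtbd13* was too low to test. Splicing was not analysed here.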

Additional observations from a re-analysis of the deposited data

How the results depend on the processing

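The direction of every member's fold change was kept in all alternatives run, 12 from counts and 9 from TPM. Leaving out each library moved the number of genes called from 3361 to between 933 (without WT1) and 4712 (without KO1), and of members from 3 to between 1 and 6. From TPM, genes called went from 2394 to between 484 and 3156 and members from 5 to between 1 and 6. DESeq2 (4149 genes called) and edgeR without a filter (4538 genes called) each called 5 members. Without the TPM filter, 1075 genes and 1 member were called.

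Among the lists, leaving out each library gave 1 to 5 calls for other ligases, 0 to 2 for autophagy genes, 3 to 8 for FoxO targets, 4 to 8 for upstream regulators, 0 to 4 for kelch and cullin genes, 1 to 5 for substrates and 0 to 3 for proteasome genes. Autophagy genes had 1 call with upper quartile factors, 0 with library totals and 4 without a filter. Kelch and cullin genes had 2 with RLE factors, library totals and DESeq2 and 3 without a filter, and proteasome genes 4 with upper quartile factors.

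The titles number the libraries without saying whether the numbers pair them. Deviations of same-numbered libraries correlated at 0.14, −0.12 and 0.0041 across genes, and those of differently numbered libraries at −0.34 to 0.28. With 3 libraries of each genotype these values cannot decide whether the libraries were paired, so the main fits had no block. With the replicate block, 2520 genes and 3 members were called, and 2103 genes and 5 members from TPM. Autophagy genes then had 0 calls, kelch and cullin genes 2 and proteasome genes 1. In counts, *Trim63* passed with the block (adjusted p = 0.0156, edgeR) and *Foxo4* did not (0.0578). Shares were not recomputed from counts per kilobase, since no length stands beside the counts. Each member had 398 reads or more in every library, and the number of libraries limits the precision too.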

Other observations

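Among 5339 or 5340 other tested genes whose log2 CPM averaged 5 or more, those most like *Trim63* over the 6 libraries were *Appl2*, *Limd1* and *Plekhb2* (Pearson's r = 0.997, 0.995 and 0.994). Those most like *Fbxo32* were *Fnip1*, *Prepl* and *Psme4* (0.994, 0.993 and 0.992), and those most like *Foxo1* were *Wac*, *Usp24* and *Ago3* (0.972, 0.970 and 0.966). With 6 libraries such values arise readily and carry no test. The other tested genes in the 10 Mb stretch that holds each member had a median log2 fold change between −0.14 and 0.30. The highest was that of *Trim54*, on chromosome 5 from 30 to 40 Mb, where 72.7% of 121 other genes were higher in KO while *Trim54* was at −0.46. *Klhl40* lies in the stretch with the lowest median, −0.14 over 46 genes on chromosome 9 from 120 to 130 Mb.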
